A study of Drosophila melanogaster with 3 samples.

Results

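The cells described here are larval brain cells of Drosophila melanogaster in which transcripts of the homeobox gene Hmx and of the LIM homeobox gene Lim3 were both detected, while dpn, a neuroblast gene, and repo, a glial gene, were not. They were chosen by their UMI counts (unique molecular identifiers, which mark single captured transcripts) of these 4 genes, in 3 single-cell libraries, among barcodes with at least 1000 UMIs, at least 500 genes and at most 20% of UMIs on mitochondrial genes. The rule found 2075 of 44461 called cells. They numbered 748 of 15194 in the mud library, 692 of 14415 in the nanobody library and 635 of 14852 in the control library. The study asked whether the size of the daughter cells of an asymmetric division bears on their cell cycle and fate. Larvae were 72 to 96 h old after egg laying and grown at 25 °C, and cells of type 1 neuroblast lineages were sorted by flow cytometry before 10x Genomics GEM-X 3′ sequencing. The mud library carried Sqh::GFP and mud4 on X, with worGal4 and UAS-mCherry::Jupiter on chromosome 3. The nanobody library carried Sqh::GFP, worGal4, UAS-mCherry::Jupiter and UAS-ALDInscuteable RockKinase domain-VhhGFP4-HA on chromosome 3, a fusion that holds an anti-GFP nanobody. The control library carried Sqh::GFP, worGal4 and UAS-mCherry::Jupiter and no further change. The Gal4 driver uses worniu sequences, which are active in neuroblasts, so the UAS transgenes are driven there. Each genotype was 1 library of batch 1, so genotypes were not tested against each other.

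A type 1 neuroblast divides repeatedly into a neuroblast and a ganglion mother cell, which divides once more into differentiating progeny. Postmitotic neurons take on their identity through combinations of transcription factors, many of them homeodomain proteins. In the fly embryo, Lim3 and tailup (tup, also called islet) are LIM homeodomain factors that act together in motor neurons, and Hmx is an NK-like homeodomain factor of the nervous system. Temporal factors add the birth time of a neuron to its identity, and cell-surface proteins of the immunoglobulin and leucine-rich repeat families guide its axon and its choice of partners.

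The libraries held 125857942 UMIs (mud), 127824556 UMIs (nanobody) and 120307337 UMIs (control), of which the Hmx+ Lim3+ cells held 5710590, 5266426 and 4307834. The median depth of Hmx+ Lim3+ cells was 6135.5 UMIs (mud), 6279 UMIs (nanobody) and 5951 UMIs (control), against 6259, 7013 and 6665 UMIs in the other elav-positive cells of those libraries. No cell barcode was shared between Hmx+ Lim3+ cells of different libraries, while 59 to 78 called barcodes were shared by each pair of libraries. A doublet score marked 12.3% (mud), 9.39% (nanobody) and 10.9% (control) of Hmx+ Lim3+ cells, against 6.07%, 5.76% and 5.94% of all called cells. Without the marked cells, the comparison with other elav-positive cells described further on called 1715 genes higher and 1957 lower, against 1753 and 1977 with them. Against cells with Hmx and no Lim3, 1681 were higher and 1765 lower without marked cells, and 1586 and 1687 with them. Against cells with Lim3 and no Hmx, 577 were higher and 862 lower without marked cells, and 427 and 781 with them. Levels are given in CPM, the UMIs of a gene summed over a set of cells in a library and scaled to a common total of all genes.

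Hmx+ Lim3+ cells made up 4.92% of called cells in mud (95% exact binomial interval 4.58% to 5.28%), 4.80% in nanobody (4.46% to 5.16%) and 4.28% in control (3.96% to 4.61%). Among cells with elav, a neuronal RNA-binding protein gene, the shares were 5.07%, 4.93% and 4.40%. All but 8 of the Hmx+ Lim3+ cells held an elav UMI: 5 without one were in mud, 2 in nanobody and 1 in control. Lim3 was found in 39.0% (mud), 48.6% (nanobody) and 36.9% (control) of cells with Hmx, against 10.8%, 9.53% and 8.64% of cells without Hmx. Intervals cover counting error only, and no difference between genotypes was tested. At the edge of the rule, 16 (mud), 15 (nanobody) and 16 (control) cells had exactly 1 UMI of each gene, and 18, 6 and 5 cells had both genes but were left out for a dpn UMI. A further 2 (mud), 0 (nanobody) and 2 (control) cells with both genes were left out for a repo UMI.

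Hmx, on chromosome arm 3R, 17558930 to 17569097 of the BDGP6.54 assembly, stood at 913, 718 and 745 CPM in Hmx+ Lim3+ cells of the mud, nanobody and control libraries, against 59.9, 26.7 and 43.7 CPM in the other elav-positive cells of the same libraries. Lim3, on 2L, 19079256 to 19108427, stood at 967, 854 and 959 CPM in them, against 78.9, 60.2 and 55.2 CPM in the other elav-positive cells. Both genes chose the cells, so these levels describe the rule. The genes tup and CG11294, a paired-type homeodomain gene, had been proposed as further markers with results of these data known, and they are given without a p-value. CG11294, on X, 8691820 to 8693620, stood at 467, 802 and 813 CPM in Hmx+ Lim3+ cells and at 9.89, 18.2 and 11.97 CPM in the other elav-positive cells, a log2 difference of 5.75 ± 0.11 (SE from the edgeR fit over the 3 libraries). It was at 4.19, 6.32 and 4.04 CPM in cells with Hmx and no Lim3, at 76.7, 164 and 129.7 CPM in cells with Lim3 and no Hmx, and at 25.0, 46.7 and 39.5 CPM in barcodes of 20 to 200 UMIs. The tup gene, on 2L, 18859507 to 18881261, stood at 414, 533 and 561 CPM in Hmx+ Lim3+ cells, against 110.1, 117 and 128 CPM in the other elav-positive cells, and at 375, 419 and 462 CPM in cells with Lim3 and no Hmx. The 3 Hmx+ Lim3+ sums of CG11294 lay above all sums of the other sets, whereas those of tup overlapped with the sums of Lim3-only cells. Within each library, tup was still higher in Hmx+ Lim3+ cells than in Lim3-only cells (log2 0.27 ± 0.042).

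After each cell was thinned to 1000 UMIs, a CG11294 UMI was found in 34.5%, 49.0% and 47.4% of Hmx+ Lim3+ cells (mud, nanobody, control), against 0.985%, 1.62% and 1.22% of the other elav-positive cells. In repo-positive cells, which should lack it, the shares were 0%, 0% and 0.741%, with 0 of 186 cells in mud and 0 of 124 in nanobody allowing up to 1.96% and 2.93% (exact upper limits). Unthinned, the shares in Hmx+ Lim3+ cells were 59.2%, 72.5% and 67.4%. A tup UMI was found in 26.7%, 33.7% and 32.1% of thinned Hmx+ Lim3+ cells, against 8.14%, 7.84% and 8.53% of the other elav-positive cells and 0.538%, 1.61% and 2.22% of repo-positive cells, whose median depth before thinning was 8748, 8727.5 and 8953 UMIs. Neither gene was therefore detected in every Hmx+ Lim3+ cell at this depth.

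**Figure D1:**
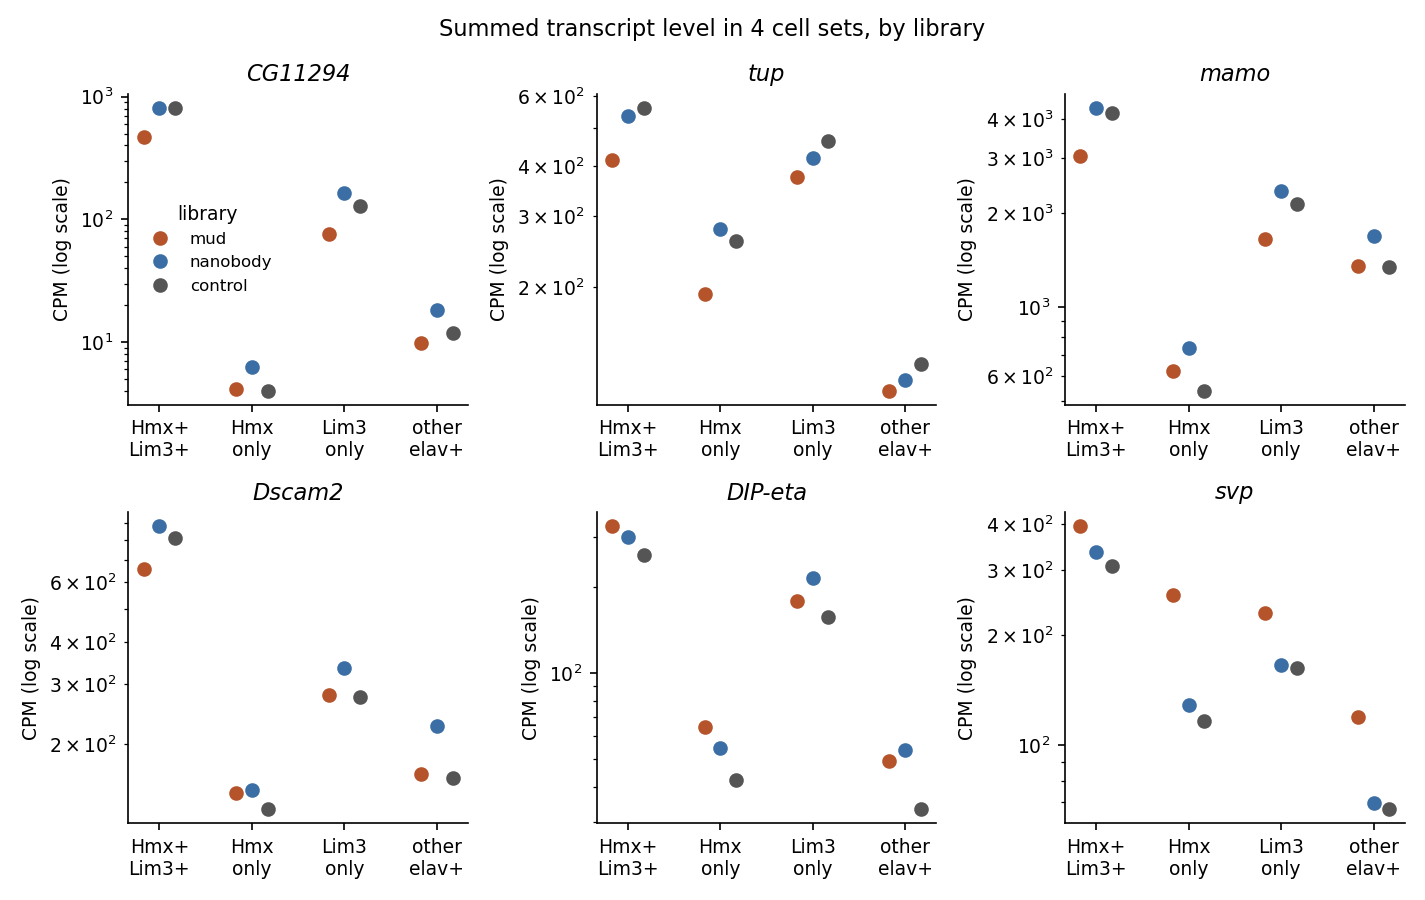
Summed transcript level (CPM, log axis) of 6 genes in Hmx+ Lim3+ cells, Hmx-only cells, Lim3-only cells and the other elav+ cells, with 1 point for each library. All 3 points of the Hmx+ Lim3+ cells lie above those of the other sets for CG11294, mamo, Dscam2 and svp, and for DIP-eta likewise. For tup they overlap with Lim3-only cells between libraries but lie higher within each library.

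To ask what else marks these cells, UMIs were summed over Hmx+ Lim3+ cells and over all other elav-positive cells in each library and compared with edgeR's quasi-likelihood test with library as a block. The genes of the rule (Hmx, Lim3, dpn, repo and elav) were left out of the calls. Both proposed markers stayed among the genes tested and count among the higher ones, but their p-values are not given. They were left out of the counts of gene lists further on. Of 8600 genes tested, 1753 (20.4%) were higher and 1977 (23.0%) lower in Hmx+ Lim3+ cells at an adjusted p under 0.05, so that 43.4% were called in either direction, 116 and 707 of them by at least 2-fold. In data simulated for this comparison, 75 of 97 tested genes changed by 2-fold were recovered.

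After CG11294, the gene with the largest increase among those with a mean of at least 20 CPM was Hexo2, which encodes a hexosaminidase. It stood at 58.7, 85.4 and 84.0 CPM in Hmx+ Lim3+ cells of mud, nanobody and control, against 8.36, 9.38 and 5.17 CPM in the other elav-positive cells (log2 3.37 ± 0.19, adjusted p = 5.2e-06 by edgeR). DIP-eta, an immunoglobulin-domain partner of dpr proteins, rose to 326, 298 and 258 CPM, against 49.4, 53.9 and 33.4 CPM (log2 2.75 ± 0.078, adjusted p = 3.5e-07). Dscam2, a homophilic cell-recognition protein, rose to 656, 879 and 809 CPM, against 164, 226 and 159 CPM (log2 2.15 ± 0.068, adjusted p = 5.05e-07). In all 3 genes, every Hmx+ Lim3+ sum lay above every sum of the comparison cells. The integrin alpha subunit gene if (inflated) rose by 2.56 ± 0.047, the homeobox gene Gsc by 2.43 ± 0.16, the nuclear receptor gene svp (seven-up) by 2.11 ± 0.094 and the acetyltransferase gene speck by 2.20 ± 0.096 on the log2 scale. CG7991 (log2 2.75 ± 0.047), rdo (2.21 ± 0.23) and prage (2.13 ± 0.096) completed, with tup, the 12 highest genes. Adjusted p-values by edgeR ran from 5.29e-08 to 0.000114 over the 10 genes other than tup and CG11294. Their direction was the same in each library and with each library left out.

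The genes that were lowest in Hmx+ Lim3+ cells were mostly peptide genes with uneven levels between libraries. Trissin was at 0.350, 0 and 0 CPM in Hmx+ Lim3+ cells and at 66.1, 0.366 and 0.00975 CPM in the other elav-positive cells of mud, nanobody and control, so its log2 difference of -7.47 ± 0.29 came from mud, without which it could not be tested. Gpa2, Crz, Nplp1 and Orcokinin, which encode a hormone subunit and neuropeptides, also fell, with log2 differences of -4.34 for Nplp1 and -4.02 for Orcokinin. Crz was at 1.93, 0 and 0 CPM in Hmx+ Lim3+ cells, against 57.8, 2.70 and 5.17 CPM in the other elav-positive cells (adjusted p = 3.15e-06 by edgeR). Gpa2 was at 1.23, 0 and 0 CPM, against 50.8, 0.206 and 39.6 CPM (adjusted p = 3.79e-06 by edgeR). Their fitted log2 differences without the mud library, -10.71 for Crz and -12.95 for Gpa2, depend on the prior count of the fit. Nplp1 and Orcokinin were lower in each library. So were the remaining 3 of the 8 lowest genes, the Notch target E(spl)mgamma-HLH (3.15, 1.71 and 0.696 CPM in Hmx+ Lim3+ cells, against 32.9, 30.2 and 23.5 CPM; log2 -3.86 ± 0.20), the bHLH gene Fer2 (log2 -3.63 ± 0.20) and the S-phase cyclin gene CycE (10.9, 6.65 and 12.8 CPM, against 145, 118 and 90.0 CPM; log2 -3.53 ± 0.16). The list of neuroblast genes used further on holds E(spl)mgamma-HLH and CycE. Since cells with dpn were left out of the Hmx+ Lim3+ cells only, the low levels of both genes describe the rule in part.

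**Figure D2:**
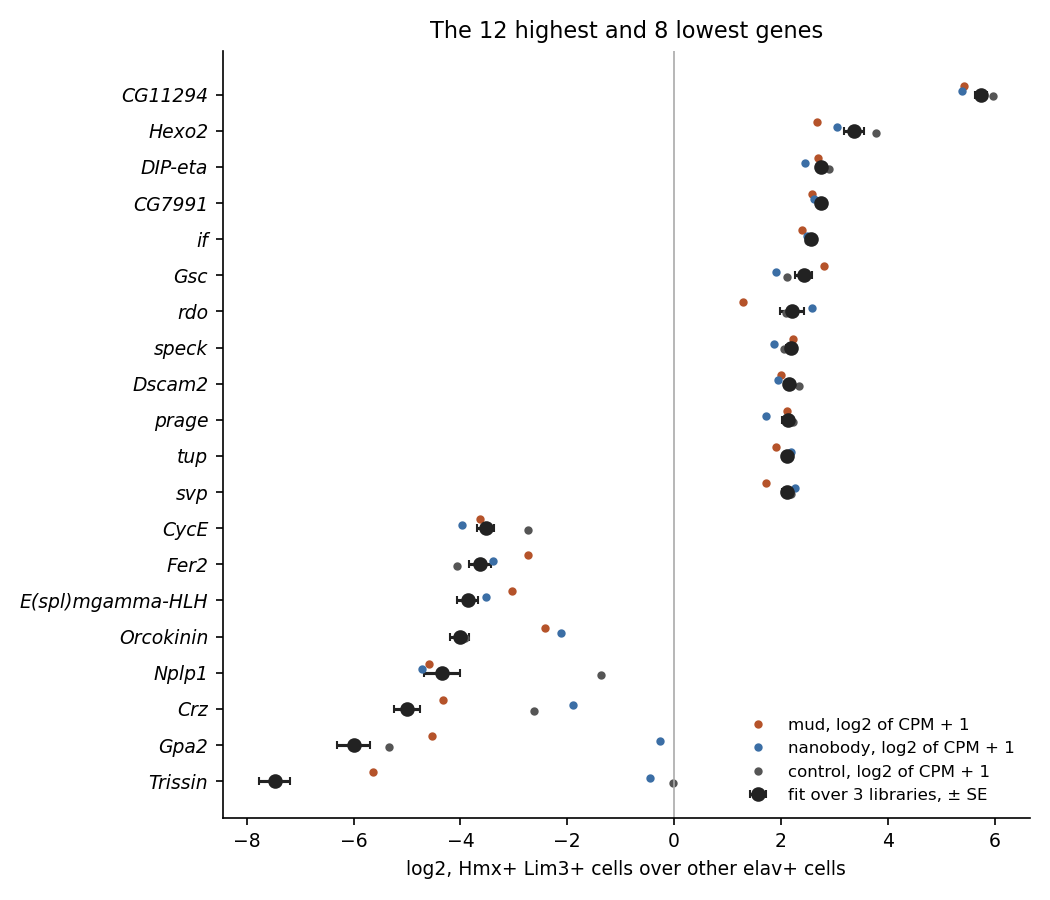
Log2 difference between Hmx+ Lim3+ cells and other elav+ cells for the 12 highest and 8 lowest genes by the naming rule. Black points with bars are the edgeR estimate ± SE from the fit over 3 libraries. Coloured points are single libraries after adding 1 CPM, which pulls genes with few UMIs towards 0. CG11294 stands farthest right at 5.75, and the points of Gpa2 and Trissin spread widely between libraries.

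The label "young neurons" was checked against marker genes. Of 4 regulators of newborn neurons, Hey and insb were lower, pros was higher and nerfin-1 did not pass the test. Hey, a Notch target of newborn neurons, fell to 35.2, 28.9 and 49.4 CPM in Hmx+ Lim3+ cells of mud, nanobody and control, against 91.5, 96.5 and 118 CPM in the other elav-positive cells (log2 -1.40 ± 0.081, adjusted p = 6.11e-06 by edgeR). The zinc-finger gene nerfin-1 was at 884, 864 and 934 CPM, against 790.4, 801 and 1048 CPM (adjusted p = 0.347). The active-zone gene brp (bruchpilot) rose to 304, 395 and 276 CPM, against 207, 211 and 170.2 CPM (log2 0.76 ± 0.065, adjusted p = 4.21e-05), and the vesicle SNARE gene nSyb was 379, 313 and 329 CPM, against 344, 276 and 317 CPM (log2 0.17 ± 0.047, adjusted p = 0.0201, lost without 1 library at adjusted p = 0.0623). Hmx+ Lim3+ cells were thus neuronal by elav. Cells with dpn were left out of them but not of the comparison cells. The levels of these age markers therefore describe the rule in part and cannot place either set as younger. Of 16 synaptic release and excitability genes, 6 were higher and 5 lower. Against Lim3-only cells, where dpn was absent from both sets, 2 of the 16 were higher and 9 lower. Of the 4 newborn neuron regulators, 1 was higher and 3 were lower there. Over all genes tested in that comparison, 5.93% were higher and 10.9% lower. Against the other elav-positive cells, genes of neuroblasts (9 of 9 lower) and of ganglion mother cells and the cell cycle (14 of 16 lower, 1 higher) were low, with median log2 differences of -2.72 and -1.46. Over all genes tested, 23.0% were lower and 20.4% higher. The absence of dpn was part of the rule for these cells but not for the comparison cells, so this describes the rule in part. Glial genes were lower for 9 of 11, 6 of them with each library left out, and 2 did not pass the test, with summed levels of 344, 506 and 276 CPM in Hmx+ Lim3+ cells of mud, nanobody and control, against 703, 776 and 523 CPM. The absence of repo, too, was part of the rule for Hmx+ Lim3+ cells and not for the comparison cells, so the glial counts describe the rule in part. The astrocyte gene alrm was at 0.700, 0.190 and 0.232 CPM, against 14.7, 7.78 and 7.49 CPM. Of 5 hemocyte genes tested, 1 was lower and none higher.

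Most homeodomain genes of the lists were lower in Hmx+ Lim3+ cells than in the other elav-positive cells, while identity factors were called in both directions. The lists were chosen with results of these data known, and list genes named in this and the following paragraphs beyond the naming rule were picked after their values had been seen. Of 28 other NK and paired-type homeodomain genes, 24 were lower, 20 of them with each library left out, and 1 higher (median log2 -2.07, or -2.05 with CG15696, which had no UMI in Hmx+ Lim3+ cells, set to a floor of 3 counts over the group). Over all genes tested, 23.0% were lower and 20.4% higher, and the median was -0.022. All 5 other LIM homeodomain genes were lower (median log2 -2.65), such as Awh at 4.90, 0.760 and 0.929 CPM in Hmx+ Lim3+ cells, against 26.4, 21.1 and 21.99 CPM, and apterous (ap) at 49.6, 39.9 and 51.8 CPM, against 131, 151 and 149 CPM. Against Hmx-only cells, 6 of 22 NK and paired-type genes were lower and 4 higher, beside 23.7% and 22.3% over all genes tested. Against Lim3-only cells, 14 of 23 were lower and 0 higher, beside 10.9% and 5.93%. All 5 LIM genes were lower than in Hmx-only cells, and 3 of 5 than in Lim3-only cells. The median log2 of other neuronal identity factors was -0.042 against Hmx-only and -0.099 against Lim3-only cells. Of 38 tested against the other elav-positive cells, 20 were lower and 16 higher, with a median log2 of -1.45. Those that rose included the T-box gene bi (optomotor-blind) at 2073, 2106 and 2213 CPM, against 914, 855 and 869 CPM (log2 1.32 ± 0.031), and the Sox genes Sox102F at 375, 362 and 343 CPM, against 94.6, 121 and 108 CPM (log2 1.79 ± 0.080), and SoxN (log2 1.13 ± 0.034). In the list that holds POU, Iroquois, Pax, cut and zfh genes and their relatives, 14 of 22 were lower and 6 higher (median log2 -1.09), and the Pax6 genes ey and toy were among the higher ones. Also higher were the zinc-finger gene CG9650 (log2 1.31 ± 0.057), the homeobox gene Vsx1 (1.00 ± 0.083) and, of the Pax6 genes, ey (1.54 ± 0.11) and toy (0.81 ± 0.043). Each of these had an adjusted p of at most 3.77e-05. Of 9 genes in the list of Hox genes and teashirt, which mark the trunk segments and parts of the head, 8 were lower and Abd-B did not pass the test. Antp was at 94.2, 86.0 and 86.6 CPM, against 331, 309.6 and 431 CPM (log2 -1.94 ± 0.099), Scr at 0.350, 0 and 1.16 CPM, against 9.68, 10.1 and 8.35 CPM, and teashirt (tsh) at 47.6, 49.4 and 40.6 CPM, against 158, 164 and 219 CPM (log2 -1.90 ± 0.13). Abd-B was at 49.0, 0.190 and 1.62 CPM, against 36.9, 15.6 and 24.9 CPM, so its sum in mud stood above those of the comparison cells and its other sums below.

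Of 11 temporal genes, 6 were higher and 4 lower (median log2 0.30), beside 20.4% and 23.0% over all genes tested. The zinc-finger gene mamo rose to 3056, 4365 and 4201 CPM in Hmx+ Lim3+ cells of mud, nanobody and control, against 1354, 1689.6 and 1342 CPM (log2 1.44 ± 0.066, adjusted p = 2.07e-06 by edgeR). The BTB genes chinmo and br rose by 0.42 ± 0.028 and 0.45 ± 0.039, and the RNA-binding protein gene Syp fell by 0.67 on the log2 scale, as did cas by 1.84. Imp, whose product opposes Syp in neuroblast timing, was at 1010.0, 378 and 726 CPM, against 1145, 589 and 682 CPM, and did not pass the test (adjusted p = 0.174).

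Cell-surface genes were called in both directions, as were all genes tested, at 20.4% higher and 23.0% lower. Of 41 axon guidance genes, 18 were higher and 10 lower, with Dscam2 and the Wnt receptor gene drl (log2 1.24 ± 0.079) rising most and side-IV (log2 -1.52 ± 0.11) falling. Of 32 adhesion genes, 13 were higher and 9 lower. The immunoglobulin gene rst (roughest) was at 145, 167 and 167 CPM in Hmx+ Lim3+ cells, against 48.8, 50.6 and 49.6 CPM (log2 1.73 ± 0.046), the leucine-rich repeat genes caps and Toll-7 rose by 1.06 ± 0.048 and 1.06 ± 0.063, and N-cadherin (CadN) rose to 1351, 1418 and 1549 CPM, against 762, 785 and 755 CPM. Fas3 fell to 72.1, 35.7 and 41.8 CPM, against 166, 172 and 200.5 CPM. Of 31 DIP and dpr genes, 5 were higher and 16 lower, with a median log2 of -0.30. DIP-zeta was at 1.05, 2.09 and 0 CPM, against 10.7, 11.7 and 15.2 CPM.

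**Figure D3:**
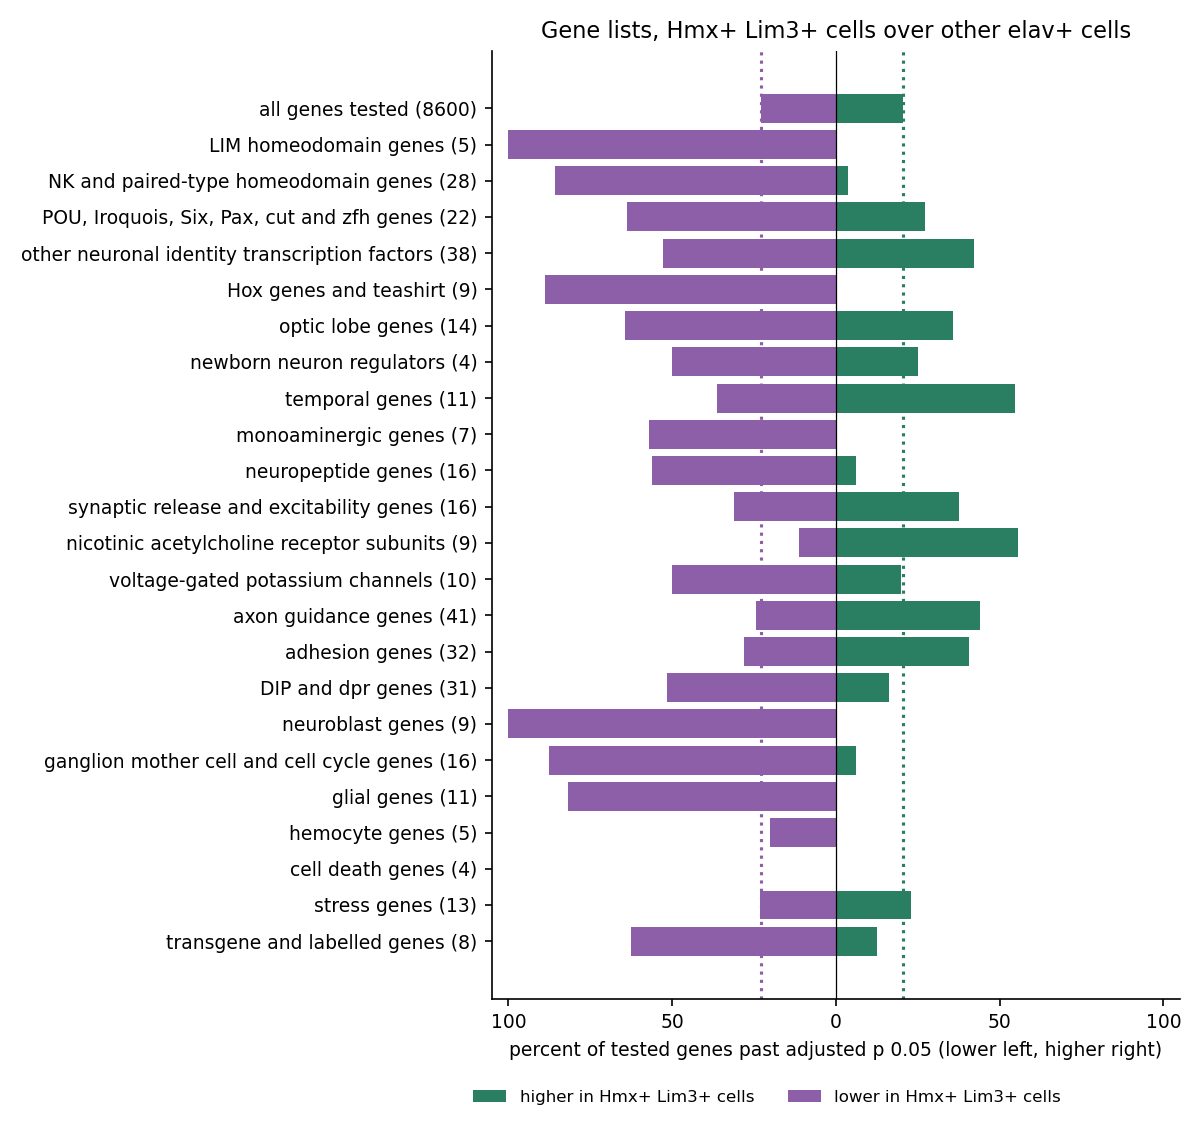
Percent of the tested genes of each list (number in brackets) that were lower (left) or higher (right) in Hmx+ Lim3+ cells than in other elav+ cells at an adjusted p under 0.05; dotted lines mark all 8600 genes tested, at 23.0% and 20.4%. LIM, NK and paired-type homeodomain, Hox and neuroblast lists extend far to the left, temporal and nicotinic receptor lists to the right.

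Transmitter genes gave no single identity. The vesicular transporter gene of cholinergic neurons, VAChT, was slightly lower, at 99.6, 109 and 117 CPM in Hmx+ Lim3+ cells of mud, nanobody and control, against 116, 132 and 145 CPM (log2 -0.22 ± 0.048, adjusted p = 0.00661 by edgeR), and the synthesis gene ChAT at 39.2, 41.0 and 44.6 CPM, against 35.3, 40.3 and 40.9 CPM, did not pass (adjusted p = 0.0846). The glutamate transporter gene VGlut rose to 211, 144 and 165 CPM, against 174, 132 and 114 CPM (log2 0.35 ± 0.066, adjusted p = 0.00310), and the GABA transporter gene VGAT to 55.2, 54.9 and 52.7 CPM, against 35.5, 36.5 and 35.9 CPM (log2 0.64 ± 0.058, adjusted p = 5.73e-05). Gad1, which makes GABA, was at 47.8, 49.0 and 46.9 CPM, against 61.0, 38.6 and 51.1 CPM (log2 -0.0035 ± 0.12, adjusted p = 0.985), but it was called higher, at a log2 difference of 0.83 (adjusted p = 0.000135), when every cell was thinned to 1000 UMIs before summing, which gives each cell equal weight. The monoamine transporter gene Vmat was at 20.1, 25.8 and 23.0 CPM, against 29.6, 17.7 and 11.8 CPM (adjusted p = 0.322), and passed the test at a log2 difference of 0.76 without the mud library (adjusted p = 0.00117). The dopamine synthesis gene ple had no UMI in Hmx+ Lim3+ cells, against 3.67, 1.23 and 2.01 CPM in the other elav-positive cells (adjusted p = 0.00207), and the dopamine transporter gene DAT was at 0.175, 0 and 0 CPM, against 3.77, 1.56 and 1.08 CPM (adjusted p = 0.000939). ChT, Ddc and Trh passed the test only with all libraries and lost it when 1 was left out, Tbh and Tdc2 did not pass (adjusted p = 0.0603 and 0.578), and SerT, with no UMI in Hmx+ Lim3+ cells, was not tested. In single cells thinned to 1000 UMIs, a VAChT UMI was found in 6.28%, 8.53% and 5.98% of Hmx+ Lim3+ cells of mud, nanobody and control, against 8.66%, 9.63% and 10.0% of the other elav-positive cells and 0.538%, 0.806% and 1.48% of repo-positive cells. A VGlut UMI was found in 8.82%, 9.10% and 9.92% of Hmx+ Lim3+ cells, against 6.87%, 6.05% and 5.69% of the other elav-positive cells and 1.08%, 1.61% and 2.96% of repo-positive cells. For Gad1 the shares were 4.95%, 5.49% and 5.35% of Hmx+ Lim3+ cells, against 2.70%, 2.07% and 2.22% of the other elav-positive cells and 2.15%, 0.806% and 0% of repo-positive cells. Unthinned, the shares in Hmx+ Lim3+ cells were 24.6%, 25.4% and 21.6% for VAChT, 15.9%, 16.5% and 16.5% for VGlut and 18.6%, 17.8% and 17.3% for Gad1, and those in repo-positive cells 5.91%, 6.45% and 7.41%, 4.84%, 4.03% and 8.15% and 4.30%, 3.23% and 2.22%, so cells were not sorted into transmitter classes. Of 9 nicotinic receptor subunits, 5 were higher and 1 lower, beside 20.4% and 23.0% over all genes. The higher ones were led by nAChRalpha6 at 427, 333 and 438 CPM, against 281, 262 and 273 CPM (log2 0.59 ± 0.061). Potassium channel genes were lower for 5 of 10 and higher for 2, against 23.0% and 20.4% over all genes, and 4 and 1 of these calls were kept with each library left out. Among them, slo was at 31.5, 13.9 and 22.7 CPM, against 79.8, 47.6 and 64.9 CPM. The sodium channel gene para fell to 87.4, 29.6 and 50.8 CPM, against 143, 88.4 and 120.2 CPM (log2 -1.07 ± 0.14). Against Lim3-only cells, 0 of the 9 nicotinic subunits were higher and 5 lower, beside 5.93% and 10.9% over all genes tested. VGlut (log2 -0.83) and the 3 cholinergic genes were lower there, and VGAT and Gad1 did not pass. Against Hmx-only cells, 4 subunits were higher and 2 lower, beside 22.3% and 23.7% over all genes tested. There, 2 of 3 cholinergic genes were lower and VGlut did not pass.

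Against the other elav-positive cells, 9 of 16 tested genes of neuropeptides and peptide processing were lower and 1 higher, beside 23.0% and 20.4% over all genes. With each library left out, 4 of the lower calls were kept and the higher one was lost. AstC was at 1.23, 0.190 and 0 CPM in Hmx+ Lim3+ cells, against 31.9, 3.26 and 7.09 CPM (log2 -4.79 ± 0.30, adjusted p = 8.49e-06 by edgeR). Of 13 stress genes, 3 were higher and 3 lower, close to the 20.4% and 23.0% over all genes, and of 4 cell death genes none passed the test.

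The cells nearest by the rule were those with only 1 of both genes, which share these libraries with the Hmx+ Lim3+ cells. There were 1090 (mud), 670 (nanobody) and 1028 (control) Hmx-only cells and 1396, 1205 and 1121 Lim3-only cells. Against Hmx-only cells, 1586 of 7117 tested genes (22.3%) were higher and 1687 (23.7%) lower, 46.0% in all. Genes of neuroblasts (9 of 9 lower, median log2 -2.50) and of ganglion mother cells and the cell cycle (15 of 16 lower, median log2 -1.42) were lower here too, although dpn was absent from both sets by the rule, and their part in the other calls was not tested. The highest, beside CG11294 at a log2 difference of 7.20 ± 0.13, were Hexo2 (log2 5.28 ± 0.25), Gsc (4.60 ± 0.14), CG34377 (3.60 ± 0.26) and speck (3.12 ± 0.11). The homeobox genes Six4 and otp were lowest, at 10.2, 0.570 and 8.36 and 10.9, 5.51 and 4.87 CPM in Hmx+ Lim3+ cells of mud, nanobody and control, against 74.9, 108 and 85.5 and 85.3, 116 and 87.1 CPM in Hmx-only cells, with the neuropeptide genes sNPF, Tk and Dh31. Dh31 was at 21.7, 37.6 and 84.3 CPM, against 229.6, 564 and 622 CPM (log2 -3.33 ± 0.17, adjusted p = 3.14e-05 by edgeR), and Tk at 17.5, 0 and 0 CPM, against 53.8, 38.9 and 103 CPM (log2 -3.33 ± 0.76, and -11.69 without mud).

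Against Lim3-only cells, 427 of 7197 tested genes (5.93%) were higher and 781 (10.9%) lower, 16.8% in all. Of the same lists, 2 of 9 neuroblast genes and 4 of 16 genes of ganglion mother cells and the cell cycle were lower, and 1 of the 16 was higher. The highest, beside CG11294 at a log2 difference of 2.52 ± 0.069, were twit (log2 2.75 ± 0.40, but 3.80 without mud and 2.04 without nanobody), Gsc (2.41 ± 0.21), ey (2.14 ± 0.058) and Sox102F (1.93 ± 0.091). The Pax6 gene ey was at 152, 186 and 182 CPM in Hmx+ Lim3+ cells of mud, nanobody and control, against 38.4, 40.1 and 39.8 CPM in Lim3-only cells (adjusted p = 1.31e-06 by edgeR). The zinc-finger gene sens-2 (log2 -4.46 ± 0.11) and the homeobox genes PHDP (-4.21 ± 0.10), C15 (-4.15 ± 0.18) and exex (-4.13 ± 0.20) were lowest after Crz, which reached 508 CPM in Lim3-only cells of mud and at most 3.47 CPM in those of the other libraries. C15 was at 3.33, 4.75 and 2.32 CPM in Hmx+ Lim3+ cells, against 59.9, 55.8 and 76.7 CPM in Lim3-only cells. Counts of this comparison depended on single libraries: 262, 236 and 300 genes were higher without control, mud and nanobody, and 594, 519 and 692 lower.

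Hmx+ Lim3+ cells were not uniform. Leiden clustering of these cells alone, without the genes of the rule, gave 14 clusters, each with cells of all 3 libraries. The clusters stay unnamed, and their leading genes are described without a test, since the same counts formed them. In 8 clusters with 1260 cells (60.7% of the 2075), CG11294 stood between 946 and 1519 CPM, and 3.41% of the cells were marked as doublets. In the other 6 clusters, with 815 cells (39.3%), it stood between 0 and 267 CPM, and 22.5% were marked.

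Among the clusters with high CG11294, cluster 1 (273 cells) was led by slp1 and slp2, forkhead genes, and had the least brp (0.683 CPM) and nSyb (15.02 CPM) of the 14 clusters, with nerfin-1 at 1563 CPM. Cluster 3 (255 cells) had brp at 822 CPM and nSyb at 703 CPM. It also held the most Gad1, at 206 CPM, and toy at 1624 CPM. Cluster 4 (250 cells) was led by opa and run and had D, a Sox gene, at 1158 CPM and DIP-eta at 927 CPM. Cluster 6 (178 cells) was led by Vmat (234 CPM) and svp (1963 CPM), with DIP-eta at 1126 CPM and VGlut at 477 CPM. In the remaining ones, cluster 8 (108 cells) had toy at 1809.7 CPM and cluster 10 (97 cells) was led by sim. Cluster 12 (62 cells) had the transcription factor gene kn (knot) at 2927 CPM and VGlut at 538 CPM. Cluster 13 (37 cells) had Vsx1 at 875 CPM and no tup UMI.

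Among the clusters with low CG11294, cluster 9 (106 cells) was led by Gsc (1339.5 CPM) and oc (1249.7 CPM), both homeobox genes, and held no CG11294 UMI. Gsc was at most 46.7 CPM in every other cluster. Cluster 7 (134 cells) was led by the GATA gene grn (1969 CPM) and by salm, with Sox102F at 1358 CPM. Cluster 11 (94 cells) had Sox102F at 1718 CPM, DIP-eta at 1111 CPM and VAChT at 273 CPM. These 3 clusters had 2.24% (7), 3.77% (9) and 19.1% (11) of cells marked as doublets. Clusters 2 (257 cells), 5 (205 cells) and 14 (19 cells) had less Hmx and Lim3 than the rest, between 354 and 614 CPM and between 336 and 529 CPM, and 38.9%, 24.9% and 36.8% of their cells were marked. Cluster 2 held the most Hey, at 158 CPM, and wor, at 80.7 CPM, and cluster 14 was led by Ldh, jdp and the neuropeptide gene sNPF. Genes that were higher in Hmx+ Lim3+ cells as a whole thus peaked in different clusters: svp in cluster 6, Sox102F in cluster 11 and Gsc in cluster 9.

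**Figure D4:**
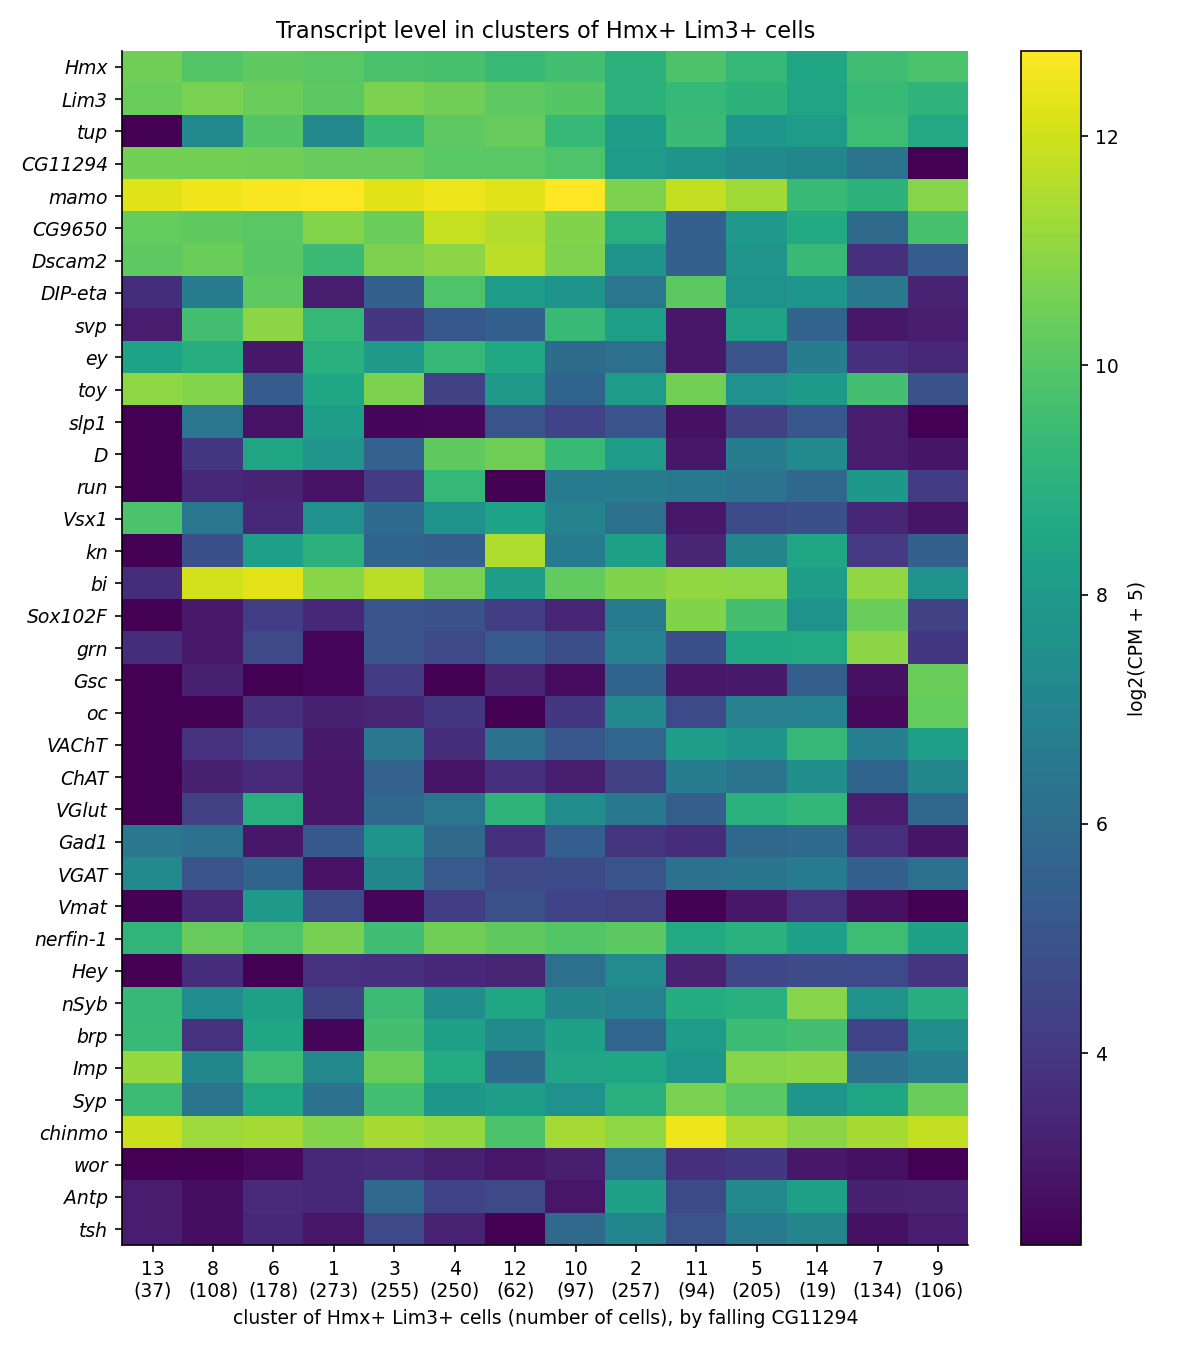
Transcript level, as log2 of CPM plus 5, of the rule genes, proposed markers and selected genes (rows) in 14 clusters of Hmx+ Lim3+ cells (columns, with cell numbers), ordered by falling CG11294. The 8 clusters on the left have CG11294 at 946 CPM or more together with high mamo and Dscam2, while Sox102F, grn, Gsc and VAChT peak in clusters on the right.

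Between genotypes, levels in Hmx+ Lim3+ cells are given as values with 95% Poisson intervals, since each genotype was 1 library. CG11294 was at 467 CPM (449 to 485) in mud and 802 CPM (778 to 827) in nanobody, against 813 CPM (787 to 841) in control, and a UMI was found in 59.2%, 72.5% and 67.4% of the cells. Clusters were unevenly filled between libraries: cluster 1, with CG11294 at 1288 CPM, held 10.0% of Hmx+ Lim3+ cells in mud and 15.03% in nanobody, against 14.8% in control, and cluster 2, with 267 CPM, held 15.9%, 10.1% and 10.7%. The part of this make-up in the genotype values was not tested. Among cells with a UMI, CG11294 averaged 842 CPM in mud and 1182 CPM in nanobody, against 1299 CPM in control. The Sox gene D was at 159.7 CPM (149.5 to 170.4) in mud and 331 CPM (316 to 347) in nanobody, against 312 CPM (296 to 329.6) in control. Of the clusters with the most D, cluster 12 held 1.34% of Hmx+ Lim3+ cells in mud and 4.77% in nanobody, against 2.99% in control, and cluster 4 held 10.8%, 12.9% and 12.6%. In the other elav-positive cells, D differed less, at 137 CPM in mud, 157 CPM in nanobody and 154 CPM in control. Imp, an RNA-binding protein gene, was at 1010.0 CPM (984 to 1036) in mud and 378 CPM (361 to 395) in nanobody, against 726 CPM (701 to 752) in control. The cell death gene skl was at 164 CPM (153 to 174) in mud and 105.2 CPM (96.6 to 114) in nanobody, against 212 CPM (199 to 226) in control, and grim at 91.9 CPM (84.2 to 100.1) in mud and 69.7 CPM (62.7 to 77.2) in nanobody, against 122 CPM (112 to 133) in control. In the other elav-positive cells, both were highest in nanobody: skl was at 113 CPM in mud and 162 CPM in nanobody, against 117 CPM in control, and grim at 82.5 CPM in mud and 125 CPM in nanobody, against 93.5 CPM in control. The adhesion gene klg was at 174 CPM (162 to 185) in nanobody, against 302 CPM (286 to 319) in control.

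Of the genes with the largest ratios between libraries, 4 were heat-shock genes. Hsp70Ab, whose near-identical copies can share reads, was at 546 CPM in mud and 203 CPM in nanobody, against 80.3 CPM in control Hmx+ Lim3+ cells, and at 514, 224 and 104 CPM in the other elav-positive cells. Hsp26 was at 1084 CPM in mud and 806 CPM in nanobody, against 403 CPM in control, and at 1012, 923 and 468 CPM in the other elav-positive cells. Hsp27 is a stress gene that the naming rule gives for the comparison of cell sets. It was at 3453 CPM in mud and 4004 CPM in nanobody, against 3539.8 CPM in control Hmx+ Lim3+ cells, so mud and control were close. In the other elav-positive cells, Hsp27 was at 2785, 3455 and 2699 CPM. Hsp68 and Hsp23 were at 389 and 503 CPM in mud and 161 and 685 CPM in nanobody, against 134 and 374 CPM in control. In the other elav-positive cells, Hsp68 was at 389, 210 and 172 CPM and Hsp23 at 433, 615 and 355 CPM. DIP-alpha was at 38197 CPM in mud and 15265 CPM in nanobody, against 9926 CPM in control. The other elav-positive cells held it at 42908, 18475 and 12754 CPM, and barcodes of 20 to 200 UMIs at 24584, 17983 and 18129.6 CPM. The part of free RNA in its level was not tested. Other large ratios rested on few cells. Lk, a neuropeptide gene, had 7000 UMIs in mud, 6987 of them in 1 cell, against 1 UMI in control. Obp44a was at 268 CPM in nanobody, with 77.9% of its UMIs in 3 cells, against 6.73 CPM in control. The gene jdp had 93.3% of its control UMIs in 3 cells, and Sp1 46.5%. Levels in mud and in control were 59.4 and 104.7 CPM for Ge-1, 235 and 398 CPM for HIP and 117 and 33.4 CPM for Sp1. In the other elav-positive cells they were 64.3 and 92.6 CPM, 238 and 377 CPM, and 277 and 201 CPM. CG12643 was at 246 CPM in nanobody, against 144 CPM in control, and at 214 and 121 CPM in the other elav-positive cells of these libraries.

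The genes altered in the genotypes were detected at low levels. The gene mud was at 49.2 CPM (43.6 to 55.3) in mud and 33.6 CPM (28.8 to 38.9) in nanobody, against 33.7 CPM (28.4 to 39.6) in control, so the library labelled mud did not hold fewer mud transcripts. How mud4 alters the transcript is not given in the labels, so this level does not check the label. The gene insc was at 13.3 CPM (10.4 to 16.8) in nanobody, against 8.82 CPM (6.24 to 12.1) in control, and Rok at 112 CPM (103 to 121), against 85.4 CPM (76.9 to 94.6). Whether reads of the fusion transgene were counted under these genes is not given in the sources used here. The sqh gene was at 70.0, 64.2 and 70.8 CPM in mud, nanobody and control. The level of GFP was 3.85 CPM in mud and 6.08 CPM in nanobody, against 5.57 CPM in control. That of mCherry was 16.3 CPM in mud and 19.2 CPM in nanobody, against 21.8 CPM in control. In the other elav-positive cells, mCherry was at 46.4, 71.5 and 138 CPM, and it was lower in Hmx+ Lim3+ cells by edgeR (log2 -2.02 ± 0.18, adjusted p = 4.83e-05). Its driver is active in neuroblasts, and the absence of dpn was part of the rule for Hmx+ Lim3+ cells but not for the comparison cells. The difference in mCherry therefore describes the rule in part.

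**Figure D5:**
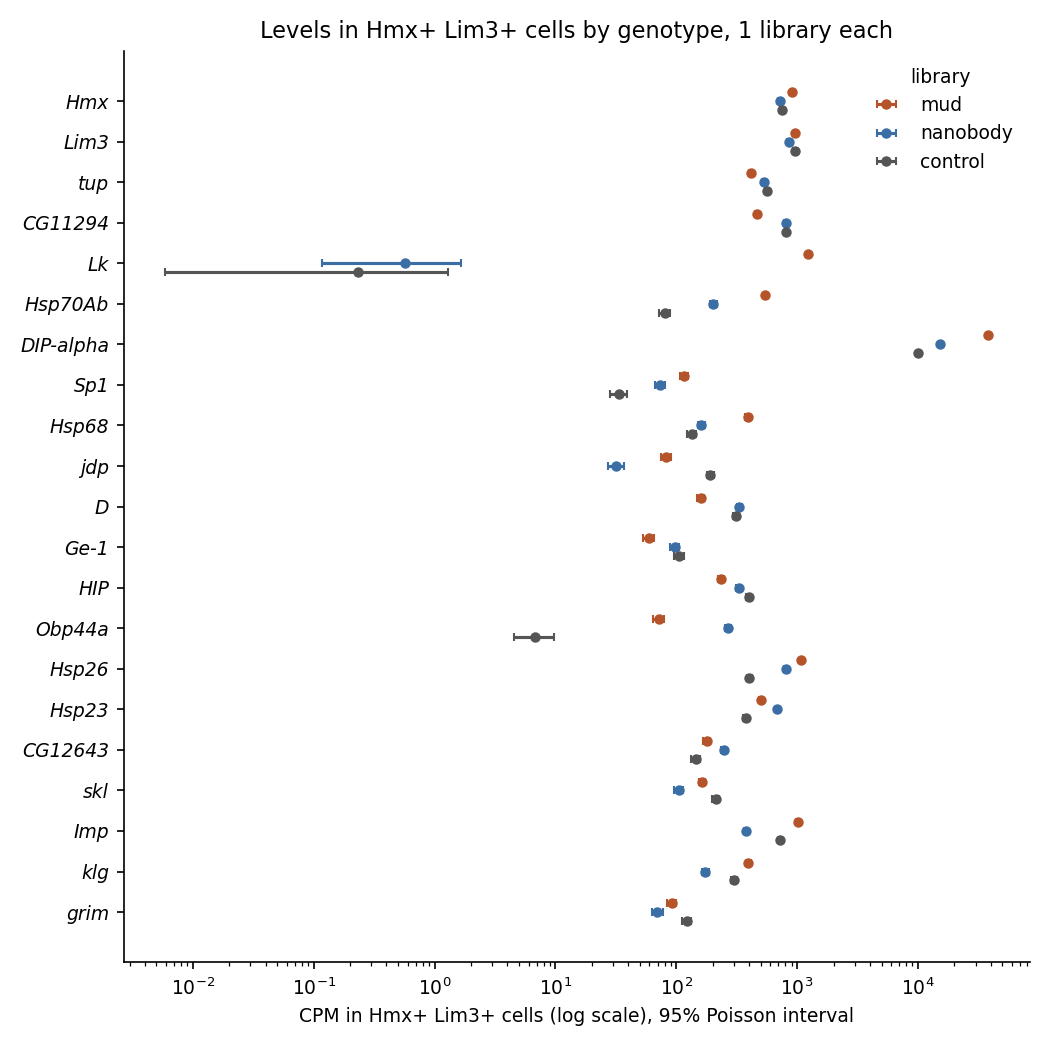
CPM (log axis) with 95% Poisson intervals of proposed markers and of the genes with the largest differences between libraries, in Hmx+ Lim3+ cells of mud, nanobody and control. CG11294 and D are lowest in mud, the 4 heat-shock genes plotted are lowest in control, and the Lk point of mud rests on 1 cell.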

How the data were processed

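The deposited matrices hold raw UMI counts per gene and barcode, written by Cell Ranger 9.0.1 per the file headers, and the submitters' processing notes also name Seurat. The values are whole numbers, and barcodes of few UMIs are still present. The build, annotation, strand and intron settings are not given in the sources used here. Gene positions are those of Ensembl release 115 (BDGP6.54), in which 13976 of 13988 feature IDs matched.

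Hmx+ Lim3+ cells, lists and the naming rule were chosen with earlier results of these data known. UMIs were summed per library and cell set, giving 6 sums per comparison, and fitted with edgeR 4.0.16 (TMM, filterByExpr, glmQLFit, glmQLFTest, library as a block, Benjamini-Hochberg over all genes tested). The same library number is the pairing, since both cell sets come from 1 library. The p-values come from the quasi-likelihood F test, whose dispersions are moderated over all genes. Each SE is the size of the log2 difference divided by the square root of F. Both rest on 3 libraries that differ in genotype. Named genes were the 12 highest and 8 lowest fold changes with an adjusted p under 0.05, the same direction in 3 libraries and a mean of at least 20 CPM where higher (5 and 5 against Hmx-only and Lim3-only cells), the 2 largest of each list, all transmitter genes, and the 5 highest and lowest ratios between genotypes at 100 CPM or more. Ratios were taken after adding 5 CPM.

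Doublets were marked with Scrublet in scanpy 1.11.5 at 0.4% per 1000 cells and kept, except in 1 alternative. Cells were clustered on 1000 variable genes, 20 components and 15 neighbours at Leiden resolution 0.5. Of 381 listed genes, 377 were in the feature list. Fits were tested on simulated data. Alternatives were stricter UMI, mitochondrial and rule limits, thinning, depth-matched cells, other scalings, DESeq2 1.42.0, no low-count filter, no library block and leaving out each library.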

Additional observations from a re-analysis of the deposited data

Results flagged for a closer look

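The fits over 3 libraries called 2 neuropeptide genes whose libraries went opposite ways, a difference that was not itself tested. Dh44 had a log2 difference of -1.91 between Hmx+ Lim3+ cells and the other elav-positive cells (adjusted p = 0.0114 by edgeR). It stood at 15.2 CPM in Hmx+ Lim3+ cells of mud, against 85.4 CPM in the other elav-positive cells, at 3.99 CPM against 1.78 CPM in nanobody, and at 0.929 CPM against 2.40 CPM in control. Lk had a log2 difference of 3.93 (adjusted p = 0.0225 by edgeR). It stood at 1226 CPM in Hmx+ Lim3+ cells of mud, against 25.5 CPM in the other elav-positive cells, at 0.570 CPM against 3.16 CPM in nanobody, and at 0.232 CPM against 2.11 CPM in control. Of the 7000 Lk UMIs in Hmx+ Lim3+ cells of mud, 6987 were in 1 cell, and 3 called cells of that library held at least 100 Lk UMIs.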

How the results depend on the processing

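Of 1599 values recomputed under alternatives, 1440 kept their direction and their side of the threshold or moved by less than their error. Requiring at least 2 UMIs of Hmx and of Lim3 lowered the share of called cells to 3.96%, 3.95% and 3.16% in mud, nanobody and control, and that of elav-positive cells to 4.08%, 4.07% and 3.26%. The rule applied to cells thinned to 1000 UMIs gave 1.88%, 1.44% and 1.56% of called cells and 2.07%, 1.51% and 1.71% of elav-positive cells, so the order of the libraries changed, and median depths of 5138, 5374 and 5183.5 UMIs. The median depth was 5773.5 UMIs in mud without marked doublets, and in control 6108 UMIs at the stricter UMI minimum and 6221.5 UMIs with 2 UMIs of each gene.

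Thinning every cell before summing, which leaves fewer counts and genes, gave 797 higher and 999 lower genes against the other elav-positive cells, 769 and 838 against Hmx-only cells and 271 and 415 against Lim3-only cells. Without the replicate block, that is, without pairing the sums of 1 library, the counts were 649 and 941, 806 and 968, and 65 and 193. DESeq2 with the block gave 951 and 1077 against Hmx-only cells and 207 and 443 against Lim3-only cells. Comparison cells matched on depth gave 247 and 500 against Lim3-only cells. Leaving out each library gave 1332 to 1537 higher and 1659 to 1771 lower genes against the other elav-positive cells, 1186 to 1301 and 1296 to 1481 against Hmx-only cells, and 236 to 300 and 519 to 692 against Lim3-only cells. The causes were not tested. Gad1, close to 0 in the comparison with the other elav-positive cells, had log2 differences of 0.12 with 2 UMIs of each rule gene, 0.12 without marked doublets, 0.83 after thinning, where it was called higher, 0.13 with matched depth, 0.0030 with RLE size factors, 0.0071 with DESeq2, 0.046 without control, 0.15 without mud and -0.21 without nanobody. The ratio of jdp between genotypes, which rests on few cells, reversed with 2 UMIs of each rule gene: it was 2.26, against -1.18 under the rule as stated, on the log2 scale for mud over control, and 0.97, against -2.42, for nanobody over control. At Leiden resolution 1 there were 22 clusters. Genotype values have no replicates, and genes under a few CPM rest on few UMIs.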

Other observations

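Hexo2 had the largest increase in Hmx+ Lim3+ cells after CG11294, among genes with a mean of at least 20 CPM. It lies 16032 bases from CG11294 on chromosome X, at 8709652 to 8712478 in BDGP6.54. It was chosen by size and its position was seen afterwards. A Hexo2 UMI was found in 37.5% (mud), 44.6% (nanobody) and 42.8% (control) of Hmx+ Lim3+ cells with a CG11294 UMI, against 7.87%, 7.37% and 6.28% of those without one. Cells with CG11294 were the shallower ones in each library, at a median of 5759 (mud), 6036.5 (nanobody) and 5621.5 UMIs (control), whereas cells without it had 7029, 8174 and 6406. CG2004, whose 3′ end overlaps that of Hexo2 on the opposite strand by annotation, was at 37.3 CPM in mud, 49.0 CPM in nanobody and 55.5 CPM in control Hmx+ Lim3+ cells, against 15.1, 15.5 and 15.6 CPM in the other elav-positive cells (log2 1.65 ± 0.097, adjusted p = 6.61e-06 by edgeR). Reads of overlapping ends can be told apart only by strand, and the strand setting of the counts is not given in the sources used here. Of 10 tested neighbours within 50000 bases of CG11294, 3 were higher and 2 lower, with CAH3 at a log2 difference of 0.17 the other higher one. That is close to the 43.4% called over all genes (20.4% higher and 23.0% lower), and Hexo2, which prompted the look, is among the 3. Hexo2 was not high in every cluster with CG11294: it stood at 285 CPM in cluster 1 and at 24.8 CPM in cluster 3, which had CG11294 at 1288 and 1285 CPM.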
